A study of Mus musculus with 60 samples.

Results

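The 10 oligodendrocyte lineage genes Olig1, Olig2, Myrf, Cspg4, Mbp, Mobp, Mag, Mog, Cnp and Cldn11 were examined in the peaks of 2 histone modifications in tagged hippocampal nuclei. The peaks taken as theirs were those whose assigned gene symbol was one of these names. This gave 164 of 256375 peaks, 97 of H4K8ac and 67 of H3K27me3, and 10 of the 16994 genes with a peak in any list. Peaks came from CUT&RUN-seq, which cuts and releases DNA at the site of a bound antibody in isolated nuclei. All groups were male Emx1-NuTRAP mice, the offspring of female Emx1-Cre and male NuTRAP animals, in which Cre from the Emx1 locus tags the nuclei of mostly excitatory forebrain neurons and also of neural progenitors. Between postnatal days 21 and 41 the cages held a running wheel (exercised) or none (sedentary). Nuclei were purified together with ribosomes from both hippocampi (SIT), or alone from the left (left separate) or the right hippocampus (right separate), and these isolations are called arms. By the labels there were 60 samples in 18 groups, each of 4 samples in SIT and of 3 in a separate arm. The authors left out 3 exercised H4K8ac libraries of the separate isolations and 1 of SIT, so these lists may rest on fewer libraries. The paper's figure of peaks beside RNA gives 2 sedentary and 3 exercised mice. The SIT lists of both marks and both conditions may thus also rest on fewer libraries than labelled. The 20 IgG samples have no peak list here. The data were 12 pooled lists, 1 for each mark, condition and arm, holding 9899 to 38136 peaks. They give positions without heights, so the depth of each list is unknown, there is no spread between mice, and a gene without a peak is one where none was called.

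Oligodendrocytes wrap axons in myelin, and in the hippocampus they arise from progenitors that persist after birth. OLIG2 and OLIG1 are basic helix-loop-helix transcription factors that specify the lineage, and MYRF is the factor that switches on myelin genes as cells mature. CSPG4 (NG2) is the proteoglycan by which progenitors are recognised. MBP and MOBP are proteins of compact myelin, while MAG, MOG, CNP and CLDN11 belong to the inner and outer surfaces, the non-compact loops and the tight junctions of the sheath. H4K8ac is an acetylation found at active chromatin. H3K27me3 is laid down by Polycomb repressive complex 2 and often covers CpG-rich start sites of developmental genes in cells of another lineage.

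The start sites differed in their content of CG dinucleotides, which are set in capitals in the sequences here, searched on 1 strand because CG reads the same on both. The first 4 are from RefSeq (GRCm38.p6), read 5′ to 3′ toward the start site and ended at or before the first base of the GENCODE gene. The last is the middle of the Cspg4 stretch covered by H4K8ac in 6 of 6 lists. They show a Polycomb-covered start site, one covered in 4 of 6 lists, one at the edge of peaks, one with no peak of either mark, and the acetylated stretch.
Olig2, chr16:91225300-91225456, plus strand: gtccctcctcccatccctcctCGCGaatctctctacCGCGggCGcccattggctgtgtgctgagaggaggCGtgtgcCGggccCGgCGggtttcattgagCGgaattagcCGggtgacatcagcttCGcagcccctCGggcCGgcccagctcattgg
Cspg4, chr9:56864854-56865032, plus strand: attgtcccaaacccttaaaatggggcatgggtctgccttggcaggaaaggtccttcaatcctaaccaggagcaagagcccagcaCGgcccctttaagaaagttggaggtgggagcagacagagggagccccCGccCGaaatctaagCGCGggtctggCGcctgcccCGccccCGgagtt
Mag, chr7:30914923-30915172, minus strand: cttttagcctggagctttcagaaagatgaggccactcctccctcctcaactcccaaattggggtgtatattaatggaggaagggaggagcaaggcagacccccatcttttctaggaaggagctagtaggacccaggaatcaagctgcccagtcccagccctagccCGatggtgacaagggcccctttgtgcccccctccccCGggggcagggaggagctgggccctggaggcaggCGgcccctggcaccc
Cldn11, chr3:31149670-31149919, plus strand: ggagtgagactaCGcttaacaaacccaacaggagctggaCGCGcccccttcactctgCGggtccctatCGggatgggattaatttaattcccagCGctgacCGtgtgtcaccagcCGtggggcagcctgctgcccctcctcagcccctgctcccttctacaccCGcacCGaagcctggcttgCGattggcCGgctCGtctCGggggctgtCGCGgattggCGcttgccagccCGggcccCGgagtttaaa
Cspg4 H4K8ac core, chr9:56868428-56868727, plus strand: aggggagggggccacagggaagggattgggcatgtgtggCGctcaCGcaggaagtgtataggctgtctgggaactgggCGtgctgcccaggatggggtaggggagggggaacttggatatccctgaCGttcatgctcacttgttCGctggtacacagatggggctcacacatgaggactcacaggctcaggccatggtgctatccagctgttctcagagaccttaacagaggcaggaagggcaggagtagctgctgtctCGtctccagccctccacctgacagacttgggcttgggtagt

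Over the full 250 bases before the RefSeq start, Olig2 held 22 CG, a number that 14.8% of 32851 RefSeq promoters reached or passed. Cldn11 held 19 (19.7% of promoters), Cnp 13 (31.5%) and Cspg4 12 (33.5%). Mobp held 4 (62.2%), the Mag start shown held 3 (71.0%) and Mog held 2 (81.2%). The median promoter held 6, and 92.1% held at least 1. Of the 10 genes, 7 had an entry in the RefSeq promoter table, and Olig1, Myrf and Mbp are named only. A high CG number did not go with H3K27me3 in each case: Olig2 and Cspg4 carried peaks over their start sites, whereas Cldn11 and Cnp had none in any list.

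Of the 10 genes, 9 had peaks of a single mark over all lists and 1, Cspg4, had both, beside 23.5% of all genes with both. Olig1, Olig2 and Mag had H3K27me3 peaks in all 6 lists and no H4K8ac peak in any, a pattern shared by 7.85% of all genes. Mbp had H4K8ac peaks in all 6 lists and no H3K27me3 peak in any, a pattern shared by 13.7% of genes. Cspg4 had H4K8ac in 6 lists and H3K27me3 in 4. For each mark alone, H4K8ac was listed in all 6 lists at 2 of the 10 genes, Cspg4 and Mbp, beside 19.3% of all genes. H3K27me3 was listed in all 6 at 3 of the 10, beside 16.5% of all genes. The remaining genes were listed less often: Mog had H4K8ac in 4 lists, Mobp had H3K27me3 in 2, and Myrf, Cnp and Cldn11 each had 1 H4K8ac peak in 1 list. Each list held peaks at 2 to 4 of the 10 genes for H4K8ac and at 3 to 5 for H3K27me3, beside 5101 to 10739 (up to 63.2%) and 3506 to 6472 (20.6 to 38.1%) of the 16994 genes.

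**Figure D1:**
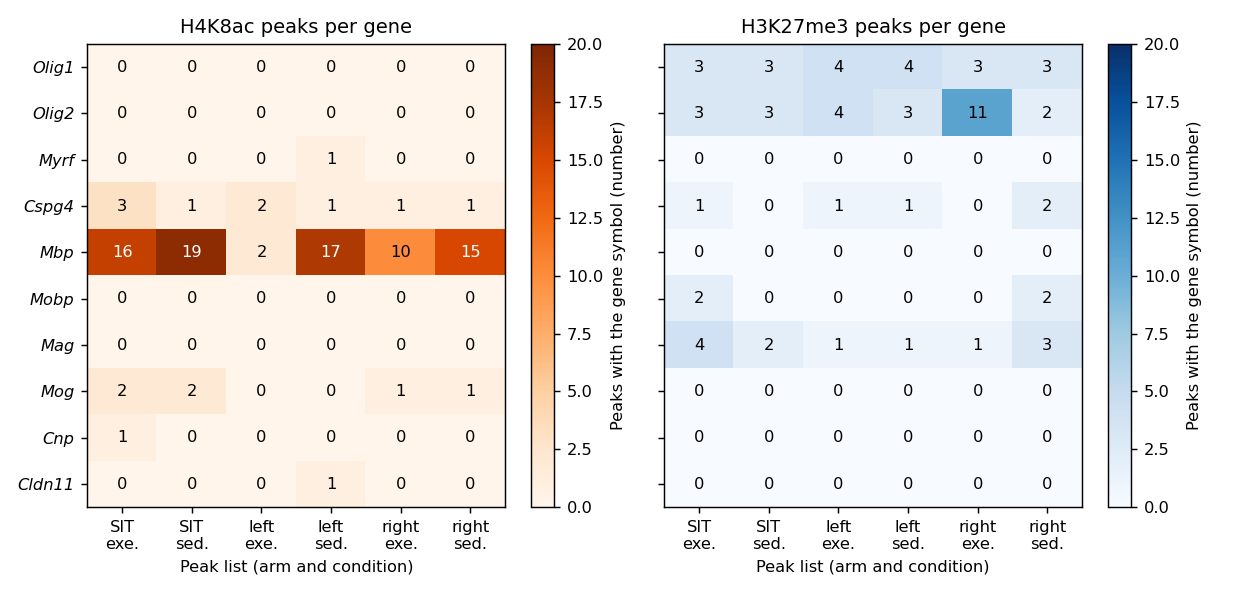
Number of peaks carrying each gene symbol (rows) in each of the 6 lists of H4K8ac (left) and H3K27me3 (right), columns giving arm and condition (exe., exercised; sed., sedentary). Mbp stands out in H4K8ac with 2 to 19 peaks and Olig2 in H3K27me3 with 2 to 11. Among the rows with H4K8ac peaks, only Cspg4 also has H3K27me3 peaks.

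Among the lineage transcription factors, Olig2 and Olig1 lay in neighbouring wide peaks of H3K27me3, with a gap between them. Both genes are on the plus strand of chromosome 16, Olig2 (ENSMUSG00000039830.9) at 91225457-91228677 and Olig1 (ENSMUSG00000046160.6) at 91269772-91271933, with start sites 44.3 kb apart. The start site of each was inside an H3K27me3 peak in 6 of 6 lists, as were the start sites of 4.28% of protein-coding genes. H4K8ac covered the start sites of 1.08% of protein-coding genes in all 6 lists, and none of the 10 genes was among them. Olig1 was covered from end to end in every list, and Olig2 in full in 5 lists and over 51.6% of its length in exercised right.

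The peak over the Olig2 start was 45.7 kb wide in exercised SIT, 43.8 kb in sedentary SIT, 44.4 kb in exercised left, 43.4 kb in sedentary left and 43.9 kb in sedentary right. These 5 peaks were of like width and ranked between the 58th and the 164th widest of their lists, whose median widths were 3066 to 4375 bp. In exercised right the same stretch was broken into pieces, and the piece over the start was 5.41 kb, ranked 1947 of 9899. That list had 11 Olig2 peaks, against 2 to 4 in the other 5, and its widest Olig2 peak measured 10.7 kb. It was also the shortest H3K27me3 list, with 41.2 Mb covered, against 72.3 to 136.0 Mb in the others. The part of list length in the broken shape was not tested.

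The peak over the Olig1 start was more even: 28.1 kb in exercised SIT, 26.5 kb in sedentary SIT, 26.7 kb in exercised left, 25.6 kb in sedentary left, 21.3 kb in exercised right and 28.8 kb in sedentary right. It was thus wide also in the list where the Olig2 peak was in pieces. Further peaks carrying the 2 symbols lay on either side, from -73.0 kb of the Olig2 start to 68.4 kb past the Olig1 start, over the annotated genes Gm49613, Gm41492 and Gm15966. Of 26 Olig2 peaks, 19 lay wholly outside the gene, as did 14 of 20 Olig1 peaks. Within this window of 186.0 kb, H3K27me3 peaks covered 91.3% of bases in exercised SIT, 85.5% in sedentary SIT, 85.0% in exercised left, 79.4% in sedentary left, 57.2% in exercised right and 90.1% in sedentary right. No H4K8ac peak of any list fell in the window.

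**Figure D2:**
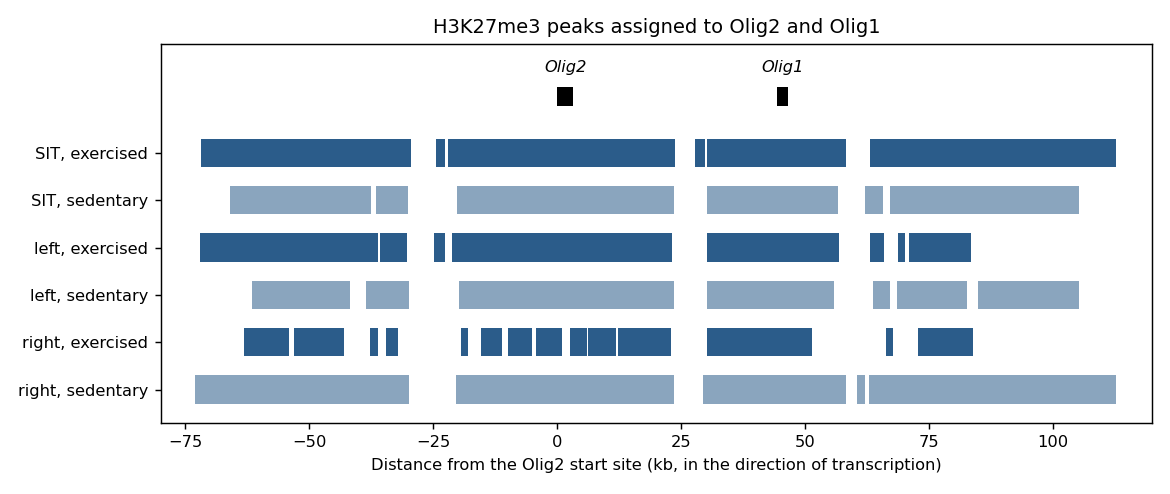
H3K27me3 peaks carrying the symbols Olig2 and Olig1 in 6 lists (rows; dark, exercised; pale, sedentary), by distance in kb from the Olig2 start site, with both genes as black boxes. A peak covers each start site in every row, the row of exercised right is broken into pieces around Olig2, and a gap between the genes recurs in each row.

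The other factor, Myrf (ENSMUSG00000036098.15, chromosome 19, 10208272-10240748, minus strand), had neither mark at its start site. A single H4K8ac peak of 802 bp lay in an intron 8.5 to 9.3 kb downstream of the start, in sedentary left alone.

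Mag, the myelin-associated glycoprotein of the innermost, axon-facing membrane (ENSMUSG00000036634.15, chromosome 7, 30899176-30914873, minus strand), had H3K27me3 in 6 of 6 lists, in 3 places. An internal peak of 2968 to 3367 bp, 4.66 to 8.89 kb downstream of the start and over exon 6, was held in 5 lists. A peak at the start site was 2444 bp wide in exercised SIT, 2900 bp in sedentary SIT and 4035 bp in sedentary right, and only the last reached the start site itself. Another place, toward the end of the gene, was held in 3 lists, including exercised right, whose only Mag peak was 1702 bp there. In sedentary SIT a peak of 5217 bp over the last bases of Mag carried the symbol of the neighbouring gene Cd22. No single place of Mag was listed in all 6 lists, and the peaks covered 10.8 to 56.0% of the gene.

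Mobp (ENSMUSG00000032517.16, chromosome 9, 120149707-120181484, plus strand) had H3K27me3 in exercised SIT and sedentary right, 2 of 6 lists. Each held the same pair of peaks: one of 4660 bp and 4755 bp, respectively, between 1.95 and 6.96 kb inside the gene over the start of an inner transcript, and an intronic one of 2251 bp and 1831 bp. The outermost Mobp start was in no peak. These 2 lists were the longest of H3K27me3, with 25693 and 21790 peaks.

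Cspg4 (ENSMUSG00000032911.6, chromosome 9, 56865033-56899870, plus strand) was the gene with both marks. H3K27me3 lay over its start site with 2165 bp in exercised SIT, 2536 bp in exercised left, 2386 bp in sedentary left and 1859 bp in sedentary right, and was absent from sedentary SIT and exercised right. H4K8ac began 2390 to 2803 bp downstream of the start in all 6 lists, in the first intron, and the merged region ran from 56867423 to 56871962. Its first peak was 4232 bp in exercised SIT, 2703 bp in sedentary SIT, 1535 bp in exercised left, 3337 bp in sedentary left, 1677 bp in exercised right and 4511 bp in sedentary right. A stretch of 1484 bp was covered in all 6, and the 300 bases shown above from its middle held 6 CG. Where both marks were listed, a gap of 976 bp in exercised SIT, 1147 bp in exercised left, 909 bp in sedentary left and 1083 bp in sedentary right lay between them. The marks were thus side by side and not on the same bases. Further from the start, exercised SIT also held H4K8ac peaks of 922 and 914 bp, 19.3 to 27.1 kb downstream. In sedentary right an H3K27me3 peak of 2120 bp lay past the gene end, 44.9 to 47.0 kb from the start.

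**Figure D3:**
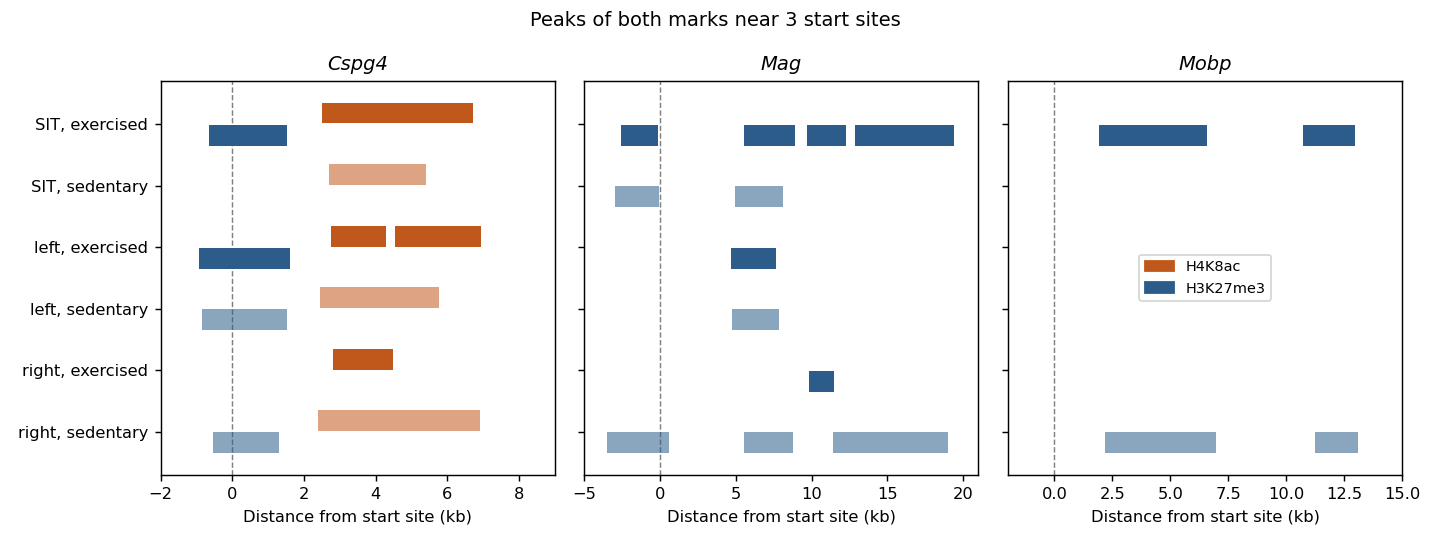
Peaks of H4K8ac (orange) and H3K27me3 (blue) in 6 lists (rows; dark, exercised; pale, sedentary) by distance in kb from the start sites (dashed lines) of Cspg4, Mag and Mobp, in the direction of transcription. At Cspg4 the blue peaks cover the start site in 4 rows and the orange peaks follow 2390 to 2803 bp downstream in all 6, while Mag and Mobp show blue peaks only.

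No H4K8ac peak of any of the 10 genes overlapped an H3K27me3 peak of these genes by 1 bp or more in any arm or condition. Such overlaps were rare throughout, at 0.117 to 0.7% of all H4K8ac peaks of a list.

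Mbp, a major protein of compact myelin, held 79 of the 97 H4K8ac peaks. The gene (ENSMUSG00000041607.17, chromosome 18, 82475146-82585637, plus strand) spans 110.0 kb. Its outermost start gives the long golli transcripts, which neurons are known to use as well, and an inner start 79.3 kb further on (ENSMUST00000152071.8) lies where the classic myelin transcripts begin. The lists held 16 Mbp peaks in exercised SIT, 19 in sedentary SIT, 2 in exercised left, 17 in sedentary left, 10 in exercised right and 15 in sedentary right. In each arm the sedentary list held more Mbp peaks than the exercised one, and exercised left was the lowest of all.

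Merged over the lists, the Mbp peaks formed 17 regions. A region from 6.57 kb upstream to 3.02 kb downstream of the outer start, and one 69.3 to 74.0 kb inside the gene, were held in all 6 lists. A peak lay within 1 kb of the outer start in 6 of 6 lists and covered it in 3 of 6. At the inner start, a peak lay within 1 kb in 4 of 6 lists, both SIT and both right lists, and covered it in exercised SIT alone. Of the 17 regions, 8 were held in all 3 sedentary lists and 2 in all 3 exercised lists, 8 in sedentary lists alone and 1 in an exercised list alone. Over all 63514 H4K8ac regions, 10143 were held in all 3 sedentary lists and 5072 in all 3 exercised lists, 37.6% in sedentary lists alone and 19.3% in exercised lists alone. Exercised left held 2 Mbp peaks. With the peaks merged anew without the left arm, 10 of 17 Mbp regions were held in both sedentary lists, 8 in both exercised lists, 7 in sedentary lists alone and 1 in an exercised list alone. Over all regions merged in this way the shares were 24.1%, 17.9%, 28.4% and 29.8%, in the same order. Regions of 1 gene are not independent, and this difference was not tested. By summed peak width, Mbp ranked from 112th of 5792 listed genes in exercised right to 1349th of 5101 in exercised left. Wide genes can collect more peaks, and no correction for gene length was made.

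**Figure D4:**
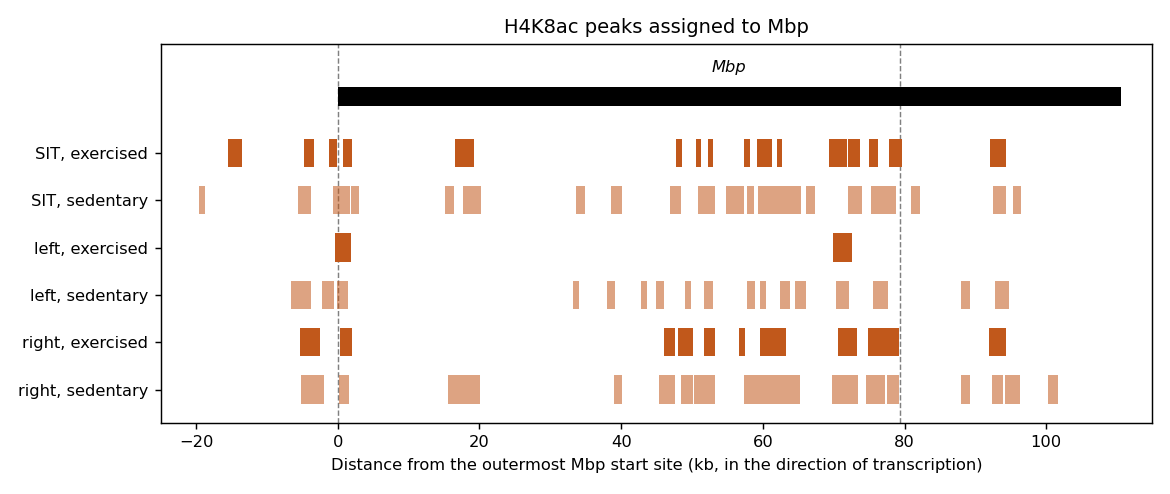
H4K8ac peaks carrying the symbol Mbp in 6 lists (rows; dark, exercised; pale, sedentary) by distance in kb from the outermost Mbp start site, with the gene as a black box and dashed lines at the outer and the inner start, 79.3 kb apart. Peaks gather at the outer start and between 44.9 and 79.6 kb in 5 rows, and exercised left holds 2 peaks.

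Mog, a protein of the outermost myelin surface (ENSMUSG00000076439.12, chromosome 17, 37010743-37023398, minus strand), had H4K8ac in both SIT and both right lists and in neither left list. The peak common to these 4 lists lay in intergenic DNA, with its near edge between -4238 and -3123 bp of the start and widths of 3494 bp in exercised SIT, 1217 bp in sedentary SIT, 1999 bp in exercised right and 3216 bp in sedentary right. A further peak inside the gene was 3101 bp wide in exercised SIT and 764 bp in sedentary SIT. No peak fell within 3 kb of the Mog start.

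The last 2 genes were named by their symbol but not touched by a peak. The peak assigned to Cnp (ENSMUSG00000006782.16, an enzyme of non-compact myelin), 1214 bp in exercised SIT, lay 9963 bp upstream within the neighbouring gene Ttc25. The peak assigned to Cldn11 (ENSMUSG00000037625.7), 2696 bp in sedentary left, lay in intergenic DNA 50161 bp from its start. Counting peaks over the gene itself in place of symbols, Cnp and Cldn11 had neither mark in any list.

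Running was compared with standard cages within each arm. A gene was called gained where the exercised list alone held a peak and lost where the sedentary list alone did. For H4K8ac in SIT, Cnp was gained and none of the 10 lost, beside 19.3% of all genes gained and 7.14% lost. In left separate none was gained and Myrf and Cldn11 were lost, beside 2.23% gained and 32.4% lost. In right separate none was gained or lost, beside 4.93% and 19.8%. For H3K27me3 in SIT, Cspg4 and Mobp were gained and none lost, beside 15.9% and 0.394%. In left separate none changed, beside 6.24% gained and 3.08% lost. In right separate none was gained and the same pair, Cspg4 and Mobp, was lost, beside 1.14% and 15.9%. No gene was gained or lost in the same direction in 2 arms, and with 10 genes a share of 1 or 2 cannot be set apart from these backgrounds.

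List lengths differed between conditions, and their part in the gains and losses was tested only by equal numbers of peaks. The H3K27me3 lists held 25693 exercised and 10279 sedentary peaks in SIT, and 9899 exercised and 21790 sedentary peaks in right separate. With the longer list of each arm reduced to its widest peaks, Mobp was still gained in SIT and lost in right separate, and Cspg4 no longer was in either. This step drops narrow peaks first. Cspg4 had 2165 bp at its start in exercised SIT and 1859 bp in sedentary right, below the list medians of 3066 and 3116 bp. The wider Mobp peaks, 4660 and 4755 bp, were above these medians, so the outcome follows peak width as well as list length.

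Covered bases, the summed width of a gene's peaks, gave a measure within genes that were listed in both conditions. For Mbp in H4K8ac they were 24.3 kb exercised and 37.5 kb sedentary in SIT, 4.99 and 23.9 kb in left separate, and 23.8 and 39.8 kb in right separate. Each exercised value was below its sedentary partner, although in right separate not as a share of all covered bases, with a mean exercised minus sedentary value of -16000 bp ± 2850 (SD, n = 3 arms). With the longer list of each arm reduced to its widest peaks, the differences were -18.5 kb in SIT, -1.95 kb in left separate and -5.91 kb in right separate, with a mean of -8790 bp ± 8660. A lower value in 3 of 3 arms was found for 7.01% of the 13585 genes with an H4K8ac peak in any list, and a higher one for 1.05%. Genes without a peak in either list of an arm cannot be lower in that arm. Only 3272 genes, Mbp among them, were listed in all 6 lists, and the share among those was not counted. Flipping the signs of the arms in an exact permutation test (two-sided) gave p = 0.25 for Mbp, which is as low as 3 arms can go, and 1.0 after Benjamini-Hochberg adjustment over the 13585 genes. The exercised H4K8ac lists, and the sedentary SIT list, may rest on fewer libraries than labelled, and the part of this in the Mbp values was not tested. In SIT the exercised list was the longer one, with 80.3 Mb covered, against 46.4 Mb. In both separate arms it was the shorter, with 25.8 against 65.9 Mb on the left and 24.5 against 56.1 Mb on the right. As a share of all covered bases, Mbp made up 0.0303% exercised and 0.0809% sedentary in SIT and 0.0193 and 0.0362% in left separate, but 0.0971 and 0.0709% in right separate, where the direction turned.

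For H3K27me3 no gene of the 10 moved the same way in 3 arms, which 1.41% of the 7399 genes with a peak in any list did upward and 2.12% downward. Of those genes, 2811 were listed in all 6 lists. Olig2 covered 89.8 kb exercised and 78.7 kb sedentary in SIT, 88.1 and 71.8 kb in left separate, and 58.9 and 87.1 kb in right separate. It was thus higher in 2 arms and lower in right separate, with a mean difference of -0.297 kb ± 24.3 (SD, n = 3 arms). Olig1 covered 79.7 and 68.2 kb in SIT, 43.2 and 63.8 kb in left separate, and 33.7 and 80.2 kb in right separate, a mean difference of -18.5 kb ± 29.0. Mag covered 14.9 and 6.06 kb in SIT, 2.97 and 3.11 kb in left separate, and 1.70 and 14.8 kb in right separate, a mean difference of -1460 bp ± 11000. In SIT and right separate each of these genes moved with the length of its list. In left separate the exercised list was also the longer one, with 92.4 against 73.9 Mb covered, and Olig2 was higher there while Olig1 and Mag were lower. Without right separate the mean difference was 13700 bp for Olig2, 4350 bp for Mag and -4570 bp for Olig1. As a share of all covered bases the directions of Olig2 turned in every arm, with 0.0662% exercised and 0.109% sedentary in SIT, 0.0953 and 0.0972% in left separate, and 0.143 and 0.0761% in right separate. Those of Olig1 turned in SIT (0.0588 and 0.0944%) and in right separate (0.0818 and 0.0701%), and those of Mag in no arm. Cspg4 covered bases of H4K8ac differed by 0.377 kb ± 3.11 and those of Mog by 1.13 kb ± 3.08, both within the spread between arms.

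**Figure D5:**
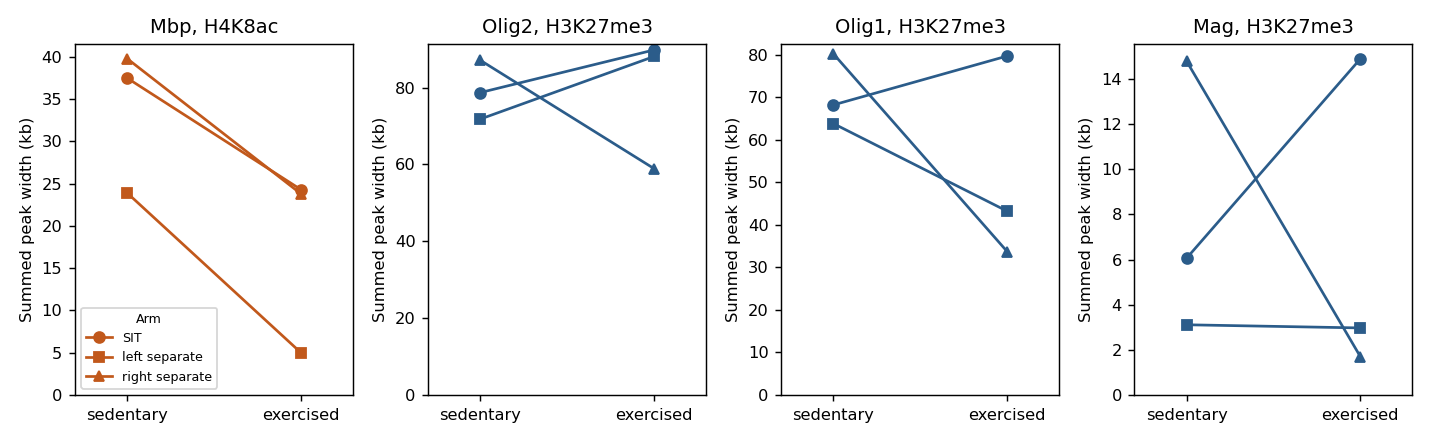
Summed peak width in kb per gene in the sedentary and the exercised list of each arm (circle, SIT; square, left separate; triangle, right separate; a line joins the pair), for Mbp in H4K8ac and Olig2, Olig1 and Mag in H3K27me3. The 3 Mbp lines fall, from 37.5 to 24.3 kb, 23.9 to 4.99 kb and 39.8 to 23.8 kb, although as a share of covered bases Mbp was higher in the exercised list of right separate; the lines of the other genes cross.

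Another 22 genes of the lineage gave a wider view. H3K27me3 was listed in all 6 lists at 9 of them: Nkx6-2, Zfp488, Tcf7l2, Pdgfra, Lhfpl3, Mal, Opalin, Fa2h and Hapln2, beside 16.5% of all genes. Among these, Pdgfra, the growth factor receptor of progenitors, covered 22.5 to 36.9 kb, and Nkx6-2, a homeobox factor, 8.51 to 18.3 kb. The myelin gene Mal covered 8.83 to 27.8 kb. H4K8ac was listed in all 6 at 2 of the 22, Tspan2 with 4.04 to 9.78 kb and Gpr37 with 15.7 to 51.1 kb, beside 19.3% of all genes. The pattern of H3K27me3 in 6 lists and H4K8ac in none held for 6 of the 22, beside 7.85% of all genes, and the reverse for Gpr37 alone, beside 13.7%. These shares are over genes with a peak in any list, which 19 of the 22 had under their own symbol. Sox8, Nkx2-2, Gpr17, Ermn, Gjb1, Gpr37 and Trf had no H3K27me3 peak under their own symbol. For Nkx2-2 the symbol misled, since its start site was inside an H3K27me3 peak of 17427 bp or more in 6 of 6 lists that carried the name of a neighbour, mostly Nkx2-2os. The start of Sox10, listed for H3K27me3 in both left and both right lists, was likewise inside peaks named Gm10863 in the SIT lists. None of the 22 was gained or lost in the same direction in all 3 arms for either mark. In 2 arms, Gjb1 was lost for H4K8ac (SIT and right separate) and Tspan2 was gained for H3K27me3 (SIT and left separate), beside 12.1% of all genes lost for H4K8ac and 3.87% gained for H3K27me3 in at least 2 arms.

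As a check of the cell type, 10 neuronal genes chosen for excitatory neurons were listed at 4 to 8 of 10 in H4K8ac and at 1 of 10, Thy1, in H3K27me3. Some of this set are named in the paper only as neuronal genes, so the set is not specific to excitatory neurons. For 10 genes of inhibitory neurons the numbers were 1 to 4 and 7 to 9, for astrocytes 2 to 8 and 4 to 6, and for microglia 1 to 5 and 3 to 4. The 10 oligodendrocyte genes, at 2 to 4 and 3 to 5, and the 22 further ones, at 4 to 10 and 10 to 14, stand beside these, as do the 5101 to 10739 of all 16994 genes listed in H4K8ac and the 3506 to 6472 in H3K27me3. The part of nuclei of other cell types in the lists was not tested.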

How the data were processed

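Hippocampal nuclei of Emx1-NuTRAP mice were profiled by CUT&RUN-seq with antibodies to H4K8ac and H3K27me3 and with IgG. Per the submitters' processing notes and the paper's methods, the authors checked reads with FastQC 0.11.9, aligned them to mm10 (GRCm38) with Bowtie2 2.4.1, called peaks with SEACR (stringent, threshold 0.01) and assigned each to the nearest transcript with ChIPseeker 1.8.6, with a promoter window of 3 kb. Some exercised H4K8ac libraries were left out by them for a high false discovery rate. How libraries were combined is not given in the sources used here. Per the file headers, the deposited tables hold peak start, end and width in bp, distance and gene symbol, with no count or signal. The depth of each list is thus unknown beyond the minimum that the paper states for its libraries, and each list is 1 pooled value of its group. The IgG samples are not analysed here.

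Genes counted as listed with at least 1 peak, and overlap meant at least 1 bp. Differences over arms were tested for every gene with an exact permutation test that flips the sign of each arm (two-sided) and Benjamini-Hochberg adjustment, with a threshold of 0.05. All 20 transcripts assigned to member peaks had the same start and end in GENCODE M21. The members and gene lists were chosen with earlier results of these data known, and some genes of the wider lineage list are not reported here. Named were all 10 genes, the other lineage genes listed in all 6 lists of a mark or changed alike in 3 arms, and other genes where a peak over a member carried their symbol. Genes named outside this rule (Ttc25, the Gm genes, Nkx2-2, Nkx2-2os, Sox10, Thy1 and the lineage genes without H3K27me3) were chosen after their values were seen. Alternatives were promoter peaks alone, distal peaks left out, peaks over gene spans, equal numbers of peaks, at least 2 peaks, shares of bases, each arm left out and a reciprocal overlap of 50%. Functions were tested on simulated data. Python 3.11.15, numpy 2.4.6, pandas 2.3.3 and matplotlib 3.10.9 were used.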

Additional observations from a re-analysis of the deposited data

Results flagged for a closer look

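At Mobp and Cspg4 the H3K27me3 lists of SIT and of right separate moved in opposite directions with running. Mobp covered 6911 bp more in the exercised than in the sedentary list in SIT, and in right separate the exercised minus sedentary value was -6586 bp. Cspg4 gave 2165 bp in SIT and -3979 bp in right separate. The latter includes a sedentary intergenic peak of 2120 bp, 44.9 to 47.0 kb from the start, beside the 1859 bp at the start site. Each value rests on 1 pooled list per condition and arm, and the difference between arms was not tested. The exercised list held more peaks in SIT and fewer in right separate.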

How the results depend on the processing

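No paired analysis was possible because the lists pool the samples of a group and carry no replicate numbers, and for the same reason no replicate could be left out. With promoter peaks alone, 2 of the 10 genes were listed for H4K8ac in exercised SIT and in sedentary left (4 each as reported), 0 were gained in SIT and 0 lost in left separate, and the summed H4K8ac difference over the 10 genes went from -15300 to -3910 bp, with Mbp from -16000 to -3180 bp. With distal peaks left out, and with peaks over gene spans, 1 gene was lost for H4K8ac in left separate (2 as reported), and with gene spans 0 were gained in SIT. With equal numbers of peaks, 1 was lost there, 1 was gained for H3K27me3 in SIT and 1 lost in right separate (2 each as reported), and the Mbp difference was -8790 bp ± 8660 (SD over arms). With at least 2 peaks, 1 gene was gained and 0 lost for H4K8ac in left separate, and 1 was gained for H3K27me3 in SIT. Of the 22 sedentary H4K8ac peaks of the 10 genes in SIT, 15 overlapped an exercised one and 5 did with a reciprocal overlap of 50%; of the 12 H3K27me3 peaks in right separate, 5 and 1 did. As a share of covered bases, the mean Olig2 difference turned positive, at 0.00737 percentage points. Leaving out an arm turned several differences that lie within the spread between arms. Without right separate the summed H3K27me3 difference went from -20700 to 18100 bp, Olig2 from -297 to 13700 bp, Mag from -1460 to 4350 bp and Cspg4 from -555 to 1160 bp. Without SIT the H4K8ac differences of Cspg4 and Mog went from 377 to -1120 bp and from 1130 to -608 bp. The Cspg4 differences also turned with promoter peaks alone (H4K8ac -728 bp, H3K27me3 152 bp) and equal numbers of peaks (-235 and 50 bp), and for H3K27me3 with distal peaks left out or gene spans (152 bp each). The other counts stayed within 1.5 times and the other differences moved by less than 1 SD over arms, or, as shares, kept their sign. Unknown depth limits each statement that a gene had no peak.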

Other observations

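The gap between the H3K27me3 peaks over the Olig2 and the Olig1 start site had a fixed edge. The peak over Olig1 began at base 91255651 of chromosome 16 in 5 of 6 lists, and at 91254791 in sedentary right. Of 100064 distinct peak starts in the 6 H3K27me3 lists, this was the only one held by 5 or more lists. The 6568 bp between the furthest end of the Olig2 peak and this edge were 99.5% soft-masked repeat in the reference, against 25.1% of the whole Olig1 and Olig2 window, with 0 unknown bases. Inside the gap, exercised SIT held a small peak at 91253172-91255214 and sedentary right the first bases of its Olig1 peak. The position was noticed in these data, and the part of repeats in the edge was not tested.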
